A study of Mus musculus with 23 samples.

Results

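Normoxic aortas of ApoE-/- mice were compared between 12 and 8 weeks of the experiment. The 5 arrays titled Nor 12W and the 5 arrays titled Nor 8W were taken from a series of 23 Clariom D mouse arrays, and every gene-level probe set was kept, which gave 65956 of the 72688 probe sets in the table after 6732 controls were left out. All mice were male ApoE-/- animals on the C57BL/6J strain, 8 weeks old when purchased and fed a high-fat diet. The Nor 12W mice were kept in normoxia for 12 weeks and the Nor 8W mice for 8 weeks. Time on the diet and age cannot be told apart in this comparison, since the Nor 12W mice were 4 weeks older as well as 4 weeks longer on the diet. As a second pair of groups at the same times, 4 CIH 12W arrays and 5 CIH 8W arrays were used. These came from ApoE-/- mice of the same strain and diet that were kept in chronic intermittent hypoxia (CIH) for 12 or 8 weeks. The other 4 arrays of the series, CIH 8W + Nor 4W, came from mice kept in CIH for 8 weeks and then in normoxia for 4 weeks. They were not compared here but entered the fit that gave every SE and p. Mice were perfused with PBS before the aorta was taken, and RNA of the whole vessel was labelled. The hour of collection and the batch are not given in the sources used here. Pooling is not mentioned and each array was taken as 1 animal. The array titles call the arrays biological replicates. What the p-values measure is the spread between samples within groups, taken over all 23 arrays, which may be technical in part.

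Mice without apolipoprotein E clear remnant lipoproteins poorly, and on a high-fat diet lipid and macrophages collect in the aortic wall. An aorta sample holds smooth muscle, endothelium, adventitial fibroblasts and the fat around the vessel, which makes fatty acids from citrate through ATP citrate lyase, acetyl-CoA carboxylase and fatty acid synthase and stores them as triglyceride. Secreted proteins fold in the endoplasmic reticulum (ER) with the help of chaperones before they are carried to the Golgi. Most cells also run a circadian clock, in which Arntl and its partner drive the repressors Per, Cry and Nr1d1. In bulk RNA, fewer cells of a type and less RNA per cell cannot be told apart.

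With 4 more weeks in normoxia, 13 of 16 genes of fatty acid synthesis and 10 of 15 ER chaperones were higher. So were 18 of 40 genes of transport into and out of the ER and 16 of 33 subunits of respiratory complex I. Of 17 genes that fasting is known to raise 6 were lower. The lists of fasting and ER transport were written after results had been seen. The fatty acid list includes Gpam, Agpat2, Dgat1 and Dgat2, which are also in the list of triglyceride synthesis. Calls required limma's p before adjustment to be under 0.05 together with a change of more than 1.1-fold, and only a called probe set is said to have risen or fallen. By this rule 4832 probe sets (7.33%) were called between Nor 12W and Nor 8W, of which 2779 (4.21%) rose and 2053 (3.11%) fell, a share of 57.5% higher, and 5212 (7.90%) had an unadjusted p under 0.05. In 1015 probe sets (1.54%) the 5 Nor 12W arrays all lay on one side of the 5 Nor 8W arrays, with 529 (0.802%) higher and 486 (0.737%) lower. After Benjamini-Hochberg adjustment over all probe sets 29 (0.0440%) had an adjusted p under 0.05, of which 20 were higher and 9 lower, and all 29 had separate groups. For the gene lists below each of 30760 genes was represented by its brightest probe set, and 6.23% of these genes rose and 3.46% fell. The median difference of all genes was 0.01 on the log2 scale, and the differences of list members are to be read against these shares.

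**Figure D1:**
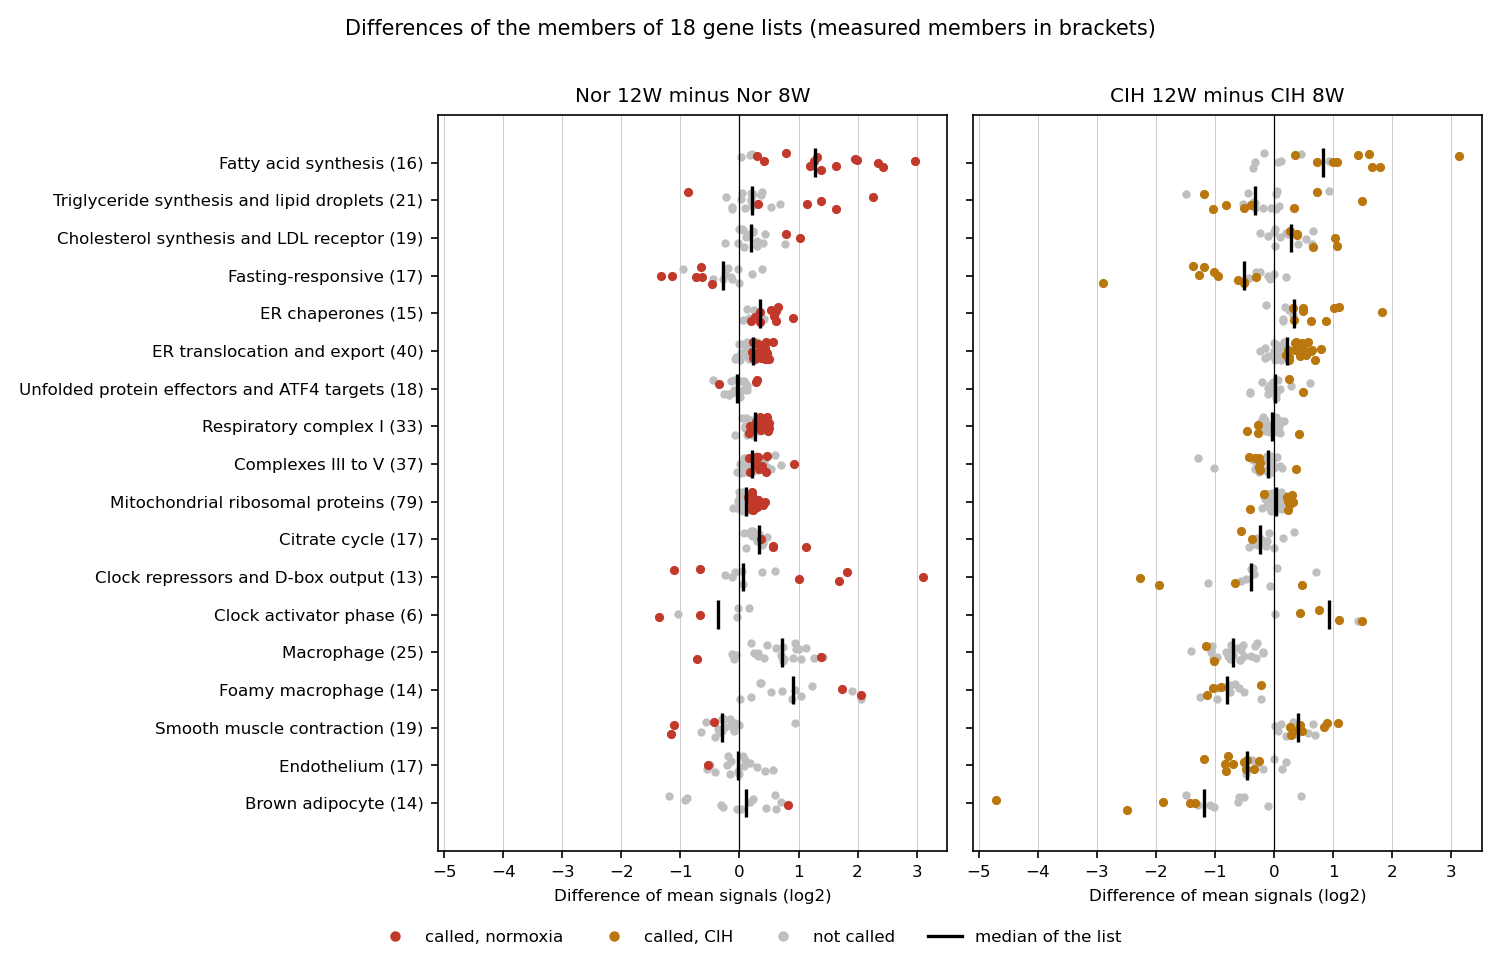
Difference of mean signals on the log2 scale for each measured member of 18 gene lists, Nor 12W minus Nor 8W on the left and CIH 12W minus CIH 8W on the right. Coloured points were called, grey points were not, and a black line marks the median of the list. Fatty acid synthesis lies farthest to the right in normoxia, with a median of 1.28.

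The aorta was recognisable in all 10 arrays. Acta2, the smooth muscle actin, had a signal of 19.89 to 19.92 in Nor 12W and of 19.92 in each of the Nor 8W arrays, at the top of the range of the arrays, where a change could not be measured. Background was set in each array at the 95th percentile of the probes made to measure it, and 30.3 to 34.1% of probe sets exceeded it in Nor 12W, against 27.3 to 33.4% in Nor 8W. This level was 4.84 to 5.50 over the 10 arrays. Other tissue came along in some samples. A list of 27 sympathetic neuron markers averaged 7.82 and 6.98 in Nor 12W replicates 3 and 4, and 9.72 in Nor 8W replicate 3, against 4.23 to 4.72 in the other Nor 12W arrays and 4.24 to 4.58 in the other Nor 8W arrays. Th, the tyrosine hydroxylase of noradrenergic nerves, had a signal of 11.55 and 10.85 in those Nor 12W replicates and of 14.84 in that Nor 8W replicate, but of 5.14 or less in the others. Sympathetic neuron markers had 0 calls among 27, 2 of the CIH 8W arrays carried the same signal, and results were recomputed without these 5 arrays. Adipocyte markers stood highest in Nor 12W replicate 5 (list mean 11.49, against 9.79 to 10.11 in the other Nor 12W arrays and 9.34 to 10.18 in Nor 8W). Platelet and red cell markers were highest in Nor 12W replicates 3 and 5 (8.47 and 9.96, against 6.10 or less in the other Nor 12W arrays and 6.02 or less in Nor 8W).

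Genes of fatty acid synthesis rose together. Of the 16 measured 13 rose and none fell, the median log2 difference was 1.28, and in 10 of them the 2 groups did not overlap. Fasn, the fatty acid synthase itself, had signals of 14.30, 14.90, 14.25, 14.42 and 14.86 in Nor 12W replicates 1 to 5, and of 10.02, 11.48, 12.62, 12.63 and 11.10 in Nor 8W replicates 1 to 5. Every Nor 12W array was above every Nor 8W array, and the Nor 8W arrays were much wider apart. The log2 difference was 2.98 (SE 0.68, limma adjusted p = 0.162), which is 7.88-fold on the deposited scale. Acaca, the acetyl-CoA carboxylase that makes malonyl-CoA, had signals of 12.39, 12.63, 12.35, 12.61 and 13.26 in Nor 12W and of 9.91, 10.03, 10.83, 10.55 and 9.77 in Nor 8W. The groups were again separate, and the difference of 2.43 (SE 0.34) passed the adjustment in limma (adjusted p = 0.00778). Acly, which splits citrate into acetyl-CoA, averaged 11.31 ± 0.52 in Nor 12W and 9.36 ± 0.72 in Nor 8W (SD, n = 5 each). Me1, the malic enzyme that supplies NADPH, averaged 14.08 ± 0.70 in Nor 12W and 12.09 ± 0.40 in Nor 8W (SD, n = 5 each, limma adjusted p = 0.032). Thrsp, a nuclear protein of lipogenic tissue, rose by 2.35 and Acss2, which makes acetyl-CoA from acetate, by 1.26 (adjusted p = 0.032 in limma), and neither overlapped between the groups. In the comparison of CIH 12W with CIH 8W the list had 9 genes that rose and 0 that fell (median 0.83), against 7.01% of all genes higher, and 0 of the 16 were called in the difference between the 2 pairs of groups.

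**Figure D2:**
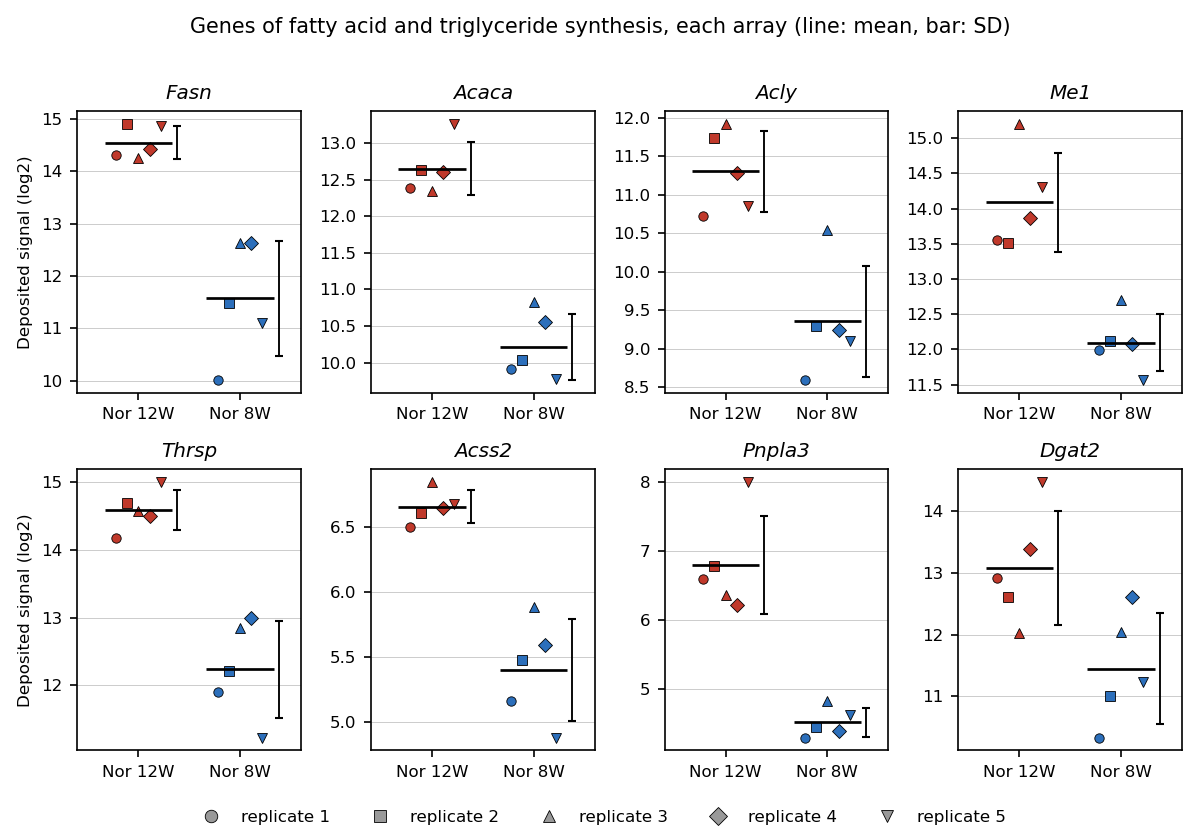
Deposited log2 signal (vertical axes) of 8 genes of fatty acid and triglyceride synthesis in each Nor 12W and Nor 8W array. Marker shapes stand for replicates 1 to 5, horizontal lines for the means and bars for the SD. Except for Dgat2, each gene has all Nor 12W points above all Nor 8W points.

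Genes of the steps after fatty acid synthesis moved less evenly. Among 21 genes of triglyceride synthesis and lipid droplets 5 rose and 1 fell (median 0.22). Without Nor 12W replicate 5, and likewise without Nor 8W replicate 2, 3 rose. Gpam, Agpat2, Dgat1 and Dgat2 are in this list and in the fatty acid synthesis list. Agpat2 and Dgat2 count among the genes that rose in both. Pnpla3, a lipid droplet acyltransferase and lipase, had signals of 6.60, 6.79, 6.36, 6.22 and 8.00 in Nor 12W and of 4.30, 4.46, 4.83, 4.40 and 4.63 in Nor 8W. The groups were separate, and the Nor 8W arrays were below the mean background of 5.10. The difference was 2.27 (SE 0.32, limma adjusted p = 0.00809). Agpat2, an acyltransferase of the triglyceride pathway, rose by 1.37, with 11.85 ± 0.62 in Nor 12W and 10.48 ± 0.40 in Nor 8W (SD, n = 5 each) and no overlap. Dgat2, which adds the last fatty acid, rose by 1.64, and its groups overlapped (12.03 to 14.48 in Nor 12W, 10.33 to 12.62 in Nor 8W). Plin4, a coat protein of lipid droplets, fell by 0.87, a call that was lost without any 1 of 7 arrays and without the arrays with neuron signal.

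Adipocyte markers were counted beside these genes. Of 15 markers 5 rose and 1 fell, but without Nor 12W replicate 5, in which they were highest, 2 rose and 1 fell, and without Nor 8W replicate 2 3 rose. Lep, the leptin hormone, had signals of 3.96 to 5.33 in Nor 12W and of 3.44 to 3.94 in Nor 8W, which is at or near background in most arrays. Pparg, the nuclear receptor that drives fat cell formation, rose by 0.99, with 12.08 in Nor 12W replicate 5, 10.10 to 10.74 in the other Nor 12W arrays and 8.86 to 10.29 in Nor 8W. Adipoq, a marker of all adipocytes, did not pass the test, with 10.03 ± 0.83 in Nor 12W and 9.61 ± 0.57 in Nor 8W (SD, n = 5 each). Ucp1, which marks brown fat, had 10.32 to 16.84 in Nor 12W and 13.57 to 16.72 in Nor 8W, and of 14 brown adipocyte markers 1 rose and 0 fell. Without Nor 12W replicate 5 the fatty acid synthesis list kept a count of 11 higher and 0 lower, with a median of 1.18. The part of adipose cell number in the lipid genes was not tested beyond this.

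Enzymes that feed the pathway rose in part. Of 11 genes of NADPH supply and the pentose phosphate pathway 4 rose and 0 fell. Taldo1, the transaldolase, had signals of 8.23, 8.23, 8.32, 8.28 and 8.69 in Nor 12W and of 7.12, 7.53, 7.75, 7.91 and 7.66 in Nor 8W. All Nor 12W arrays were higher, by 0.76 on average (SE 0.13, limma adjusted p = 0.0277), while in CIH the same gene had a difference of -0.15 that was not called. Pgd, which makes NADPH in the same pathway, rose by 0.83, with 7.75 to 8.28 in Nor 12W and 6.86 to 7.83 in Nor 8W. Among 16 mitochondrial carriers 5 rose and 0 fell. Slc25a10, the dicarboxylate carrier, averaged 6.02 ± 0.25 in Nor 12W and 5.22 ± 0.07 in Nor 8W (SD, n = 5 each, limma adjusted p = 0.0277), and Slc25a1, which exports citrate to the cytosol, rose by 1.19. Slc25a1 already counts among the genes that rose in the fatty acid synthesis list. Pygl, the liver-type glycogen phosphorylase, had signals of 9.47, 9.47, 9.13, 9.52 and 10.26 in Nor 12W and of 7.61, 7.87, 8.04, 8.39 and 7.97 in Nor 8W. The groups were far apart, and the difference of 1.59 (SE 0.22) had a limma adjusted p of 0.0072. Glycogen genes did not follow as a group, since 2 of 21 rose and 1 fell. The others called were Ppp1r3c, a scaffold that favours glycogen synthesis, which rose by 0.57, and Phkg2, a subunit of phosphorylase kinase, which fell by 0.34.

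Few genes of cholesterol synthesis were called with all arrays. The list of 19 genes, which includes the LDL receptor, had 2 that rose and 0 that fell (median 0.20). Insig1, the sterol sensor partner that holds SREBP in the ER, had signals of 9.98, 9.51, 10.06, 10.21 and 11.17 in Nor 12W and of 8.72, 9.15, 9.94, 9.08 and 8.89 in Nor 8W. Only Nor 8W replicate 3 reached into the Nor 12W range, and the difference was 1.03 (SE 0.30). That Nor 8W array was high for the whole list (7.87, against 6.46 to 6.68 in the other Nor 8W arrays and 6.83 to 7.45 in Nor 12W), and it is the Nor 8W array with neuron signal. Without it 12 of the 19 rose and 0 fell, with a median of 0.44, and without all arrays with neuron signal 11 rose and 0 fell.

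Of 17 genes known to be raised by fasting 6 fell, 0 rose and 11 were not called (median -0.28), against 3.46% of all genes lower. Without Nor 12W replicate 3, and likewise without the arrays with neuron signal, 4 fell and 1 rose. Sqstm1, an adaptor for selective autophagy, had signals of 11.90, 11.80, 11.72, 11.75 and 11.58 in Nor 12W and of 12.17, 12.18, 12.25, 12.21 and 12.25 in Nor 8W. The 2 groups were narrow and separate, with a difference of -0.46 (SE 0.08, limma adjusted p = 0.0486). Trp53inp1, a stress-induced autophagy protein, fell by 1.34, with 10.71 to 11.52 in Nor 12W and 11.76 to 12.63 in Nor 8W. Cpt1a, which carries long fatty acids into mitochondria for oxidation, had signals of 13.52, 12.83, 13.08, 12.76 and 12.60 in Nor 12W and of 13.77, 13.75, 13.58, 13.76 and 13.63 in Nor 8W. Again no Nor 12W array reached the lowest Nor 8W array. Txnip, a glucose-sensitive inhibitor of glucose uptake, and Irs2, an adaptor of the insulin receptor, fell by 0.66 and 1.15, and Fbxo32, a ubiquitin ligase of muscle wasting, fell by 0.63. The calls of Irs2 and Fbxo32 were lost under 5 and 3 of the alternatives. In CIH 12W compared with CIH 8W 10 of these 17 genes fell, against 7.09% of all genes, and 4 genes fell in both pairs of groups.

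Most chaperones of the ER rose, and so did part of the machinery that moves proteins into and out of it. Of 15 chaperone and folding genes 10 rose and 0 fell (median 0.35), and of 40 genes of translocation into the ER and export to the Golgi 18 rose, 0 fell and 22 were not called (median 0.23). Calr, the lectin chaperone calreticulin, had signals of 15.46, 15.67, 15.72, 15.41 and 15.22 in Nor 12W and of 14.61, 14.86, 14.74, 14.79 and 15.18 in Nor 8W. The groups were separate by a narrow margin, between Nor 12W replicate 5 and Nor 8W replicate 5, and the difference was 0.66 (SE 0.10, limma adjusted p = 0.0257). The promoters of this list were searched for the ER stress response element, which is CCAAT and CCACG with 9 bases of any kind between them, on both strands. It was found in 7 of the 14 measured chaperone genes with a promoter sequence, against 37 of 27025 genes (0.137%) and 39 of 32851 promoters (0.119%) in all, in 0 of 33 genes of translocation and export and in 0 of 17 effectors of the unfolded protein response. The sites are shown because they join the members of the list that rose with members that were not called. They are printed with 5 bases on each side, from RefSeq promoters of GRCm38.p6 that reach from 250 bases before to 50 after the start, and capitals mark the letters of the element that were fixed in the search.
Calr, chr8:84847070-84847098, + strand: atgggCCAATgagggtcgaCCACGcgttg
Hsp90b1, chr10:86705528-86705556, + strand: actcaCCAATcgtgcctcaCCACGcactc
Hsp90b1, chr10:86705633-86705661, - strand: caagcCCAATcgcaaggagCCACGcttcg
Pdia6, chr12:17266486-17266514, + strand: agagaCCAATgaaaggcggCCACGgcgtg
Hspa5, chr2:34772020-34772048, + strand: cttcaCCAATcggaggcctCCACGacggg
Creld2, chr15:88819515-88819543, - strand: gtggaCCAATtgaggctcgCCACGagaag
Canx, chr11:50325795-50325823, - strand: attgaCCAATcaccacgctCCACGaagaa
Dnajc3, chr14:118937822-118937850, + strand: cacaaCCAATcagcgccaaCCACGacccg
The last letters of the element share CACG with the E-box, CACGTG. Of the 7 genes with the element 5 rose, and of the 7 without it 5 rose as well.

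Hsp90b1, the ER member of the HSP90 family with 2 of these sites, had signals of 15.85, 15.75, 16.22, 15.74 and 15.69 in Nor 12W and of 15.21, 14.98, 15.10, 15.10 and 15.73 in Nor 8W. Pdia6, a disulfide isomerase with 1 site, had 12.90, 12.81, 13.28, 12.66 and 12.68 in Nor 12W and 11.69, 11.87, 11.54, 11.88 and 12.78 in Nor 8W. Pdia3, an isomerase that works with calreticulin, had 15.61 to 16.45 in Nor 12W and 15.22 to 15.56 in Nor 8W, with no overlap. In Hsp90b1 and Pdia6 Nor 8W replicate 5 alone lay inside the Nor 12W range. The same array set Hspa5, the HSP70 chaperone of the ER also called BiP, apart. Hspa5 had signals of 13.66 to 13.69 in Nor 12W and of 12.98, 12.95, 12.91, 12.92 and 14.50 in Nor 8W. The mean difference of 0.42 (SE 0.23) was not called, although 4 of 5 Nor 8W arrays were below every Nor 12W array. Creld2, a secreted chaperone-like protein of the ER, rose by 0.62 and had 9.30 to 9.89 in Nor 12W, with 10.10 in Nor 8W replicate 5 and 8.46 to 8.89 in the other Nor 8W arrays. Without Nor 8W replicate 5, 14 of the 15 chaperone genes rose. Without the arrays with neuron signal 5 rose, with a median of 0.34.

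**Figure D3:**
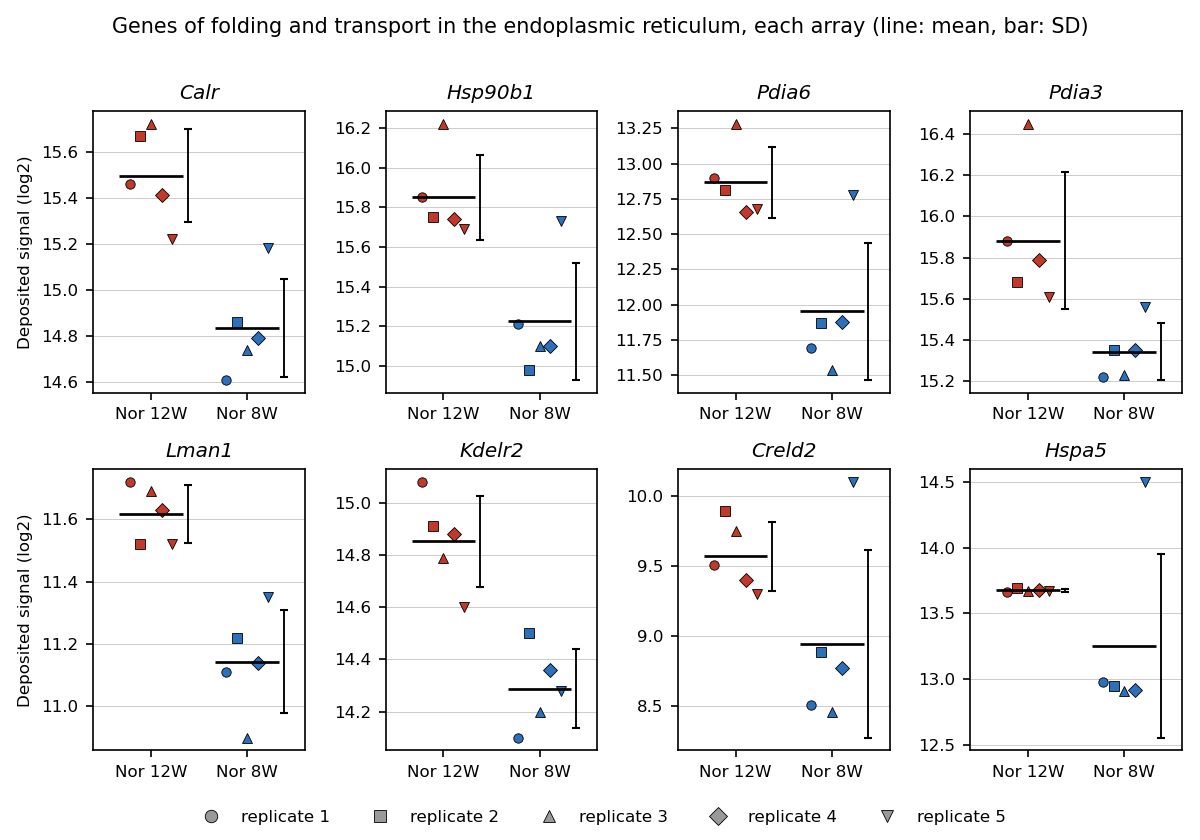
Deposited log2 signal (vertical axes) of 8 genes of folding and transport in the ER in each Nor 12W and Nor 8W array. Marker shapes stand for replicates 1 to 5, lines for the means and bars for the SD. Nor 8W replicate 5 stands above the other Nor 8W arrays for Hspa5 (14.50), Creld2 (10.10) and Pdia6 (12.78).

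Lman1, the cargo receptor ERGIC-53, had signals of 11.72, 11.52, 11.69, 11.63 and 11.52 in Nor 12W and of 11.11, 11.22, 10.90, 11.14 and 11.35 in Nor 8W, separate groups with a difference of 0.47 (SE 0.08, limma adjusted p = 0.0269). Kdelr2, the receptor that returns chaperones to the ER, rose by 0.56, with 14.60 to 15.08 in Nor 12W and 14.10 to 14.50 in Nor 8W. Copb2, a subunit of the COPI coat, Ssr1 and Tram1, which sit at the translocon, had separate groups as well, and Sar1a, the GTPase of the COPII coat, rose by 0.45 with a small overlap. Cog6, a subunit of a Golgi tethering complex, had signals of 9.51, 9.40, 9.47, 9.52 and 9.47 in Nor 12W and of 8.90, 9.20, 8.87, 8.94 and 9.10 in Nor 8W. These groups were narrow and separate (difference 0.47, SE 0.06, limma adjusted p = 0.0072), and 2 of 7 subunits of the complex rose, the other being Cog5. Effectors of the unfolded protein response and targets of ATF4, 18 in all, had 2 that rose and 1 that fell (median -0.05), and 4 that rose without Nor 8W replicate 5. The 2 that rose, Psat1 and Phgdh, make serine, and Ppp1r15a, a phosphatase subunit for eIF2alpha, fell by 0.35. Over the same weeks in CIH 9 of the 15 chaperone genes and 21 of the 40 transport genes rose, against 7.01% of all genes. Of either list 0 fell.

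Some genes of the respiratory chain rose, by small amounts, and most were not called. Of 33 subunits of complex I 16 rose and 0 fell (median 0.26), and of 37 genes of complexes III to V 12 rose and 0 fell (median 0.21). Of 79 genes listed as mitochondrial ribosomal proteins 20 rose and 0 fell (median 0.11). The 79 include the pseudogenes Mrpl23-ps1, Mrpl27-ps, Mrpl48-ps, Mrps36-ps1 and Mrps36-ps2, and Mrps36-ps1 is among the 20 that rose. Ndufs5, an accessory subunit of complex I, had signals of 6.42, 6.21, 6.26, 6.26 and 6.22 in Nor 12W and of 5.67, 5.99, 5.87, 6.03 and 5.89 in Nor 8W. The groups were separate, with a difference of 0.38 (SE 0.06, limma adjusted p = 0.0269). Ndufs4 and Ndufa5, further subunits of complex I, rose by 0.40 and 0.35. Cycs, the electron carrier cytochrome c, rose by 0.93, with 13.77 to 15.46 in Nor 12W and 13.30 to 14.18 in Nor 8W. Of 17 genes of the citrate cycle and its entry 4 rose and 0 fell, a count that was 12 without Nor 12W replicate 3, 7 without Nor 8W replicate 4 and 2 without any 1 of Nor 12W replicates 4 and 5 and Nor 8W replicate 2. Pdhb, a subunit of pyruvate dehydrogenase, had signals of 14.28, 13.87, 14.52, 14.81 and 15.10 in Nor 12W and of 13.17, 13.12, 13.40, 13.63 and 13.63 in Nor 8W. No Nor 8W array reached the lowest Nor 12W array, and the difference was 1.12 (SE 0.23, limma adjusted p = 0.0933). Pdha1 and Dld, other parts of the same enzyme complex, each rose by 0.57. Gcsh, the mitochondrial H protein of glycine cleavage, rose by 0.64 with an adjusted p of 0.0146 in limma. The count for complex I depended on single arrays, being 7 without Nor 8W replicate 1, 10 without Nor 12W replicate 5 and 10 without the arrays with neuron signal. Complexes III to V had 5 higher after quantile normalization, 5 when Nor 8W replicate 1 was left out and 7 when Nor 12W replicate 4 or 5 was, and the mitochondrial ribosomal proteins had 13 higher after quantile normalization.

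The respiratory genes were set beside CIH. Of the 33 complex I subunits 1 was higher and 3 were lower in CIH 12W than in CIH 8W (median -0.03). Over all genes 7.01% were higher and 7.09% lower there. In the difference between the 2 pairs of groups 12 of 33 were called, all of them with the CIH difference lower. Over all probe sets 10.4% were called in that difference, and a share by gene was not computed. Pdhb had a difference of -0.09 in CIH, and the difference between the pairs was -1.22 (limma adjusted p = 0.173). For fatty acid oxidation 3 of 21 genes rose in normoxia and 1 fell, Cpt1a, which is also in the fasting list. In CIH 11 fell, against 7.09% of all genes, and 11 were called in the difference between the pairs.

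Clock genes changed in both directions. Of 13 repressors and output genes of the clock 4 rose and 2 fell, and of 6 genes of the activator phase 2 fell and 0 rose. Nr1d1, the REV-ERBalpha repressor of Arntl, had signals of 11.72, 10.88, 11.69, 11.49 and 10.78 in Nor 12W and of 11.57, 6.64, 7.58, 7.40 and 7.82 in Nor 8W. Of the Nor 8W arrays only replicate 1 reached the Nor 12W range. The difference of 3.11 (SE 0.81, limma adjusted p = 0.234) became 3.95 without that array. Nr1d2, its close relative, rose by 1.68, Dbp, an output factor, by 1.81 and Bhlhe40, a further repressor, by 1.00. Cry1, the late repressor, had signals of 5.06, 5.40, 5.35, 5.27 and 5.54 in Nor 12W and of 5.83, 6.95, 6.44, 6.45 and 7.74 in Nor 8W, separate groups with a difference of -1.36 (SE 0.33). Per2 had 6.27 to 6.89 in Nor 12W and 7.41 to 8.10 in Nor 8W, also separate, and Cry2 fell by 0.66. Nfil3, which opposes Dbp at the same sites, fell by 0.67. Arntl did not pass the test, with 9.01 ± 0.46 in Nor 12W and 10.05 ± 0.89 in Nor 8W (SD, n = 5 each). The calls of Nr1d2, Dbp, Bhlhe40 and Nfil3 were lost without the arrays with neuron signal.

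Promoters of the clock genes were searched for the E-box, CACGTG, through which Arntl acts, and for the element TAGGTCA, which Nr1d1 shares with the ROR receptors, on both strands. The E-box was found in 4 of 11 repressor and output genes and in 1 of 6 of the activator phase. Over all genes it was found in 8.09%, and in 7.15% of promoters. The 4 repressor and output genes were Bhlhe41, Ciart, Per1 and Tef, and none of them was called in normoxia. No called gene of that list with a promoter sequence had the E-box. The ROR element was found in 0 of 11 and in 2 of 6, against 2.97% of all genes and 2.61% of promoters. A site in each of the 2 genes of the activator phase that fell is shown, with 5 bases on each side and the searched letters in capitals.
Cry1, chr10:85185104-85185119, - strand: gtggtCACGTGgggtg
Nfil3, chr13:52981040-52981056, + strand: gttagTAGGTCAgttcc
Both lie before the start of the gene, and no binding was measured.

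**Figure D4:**
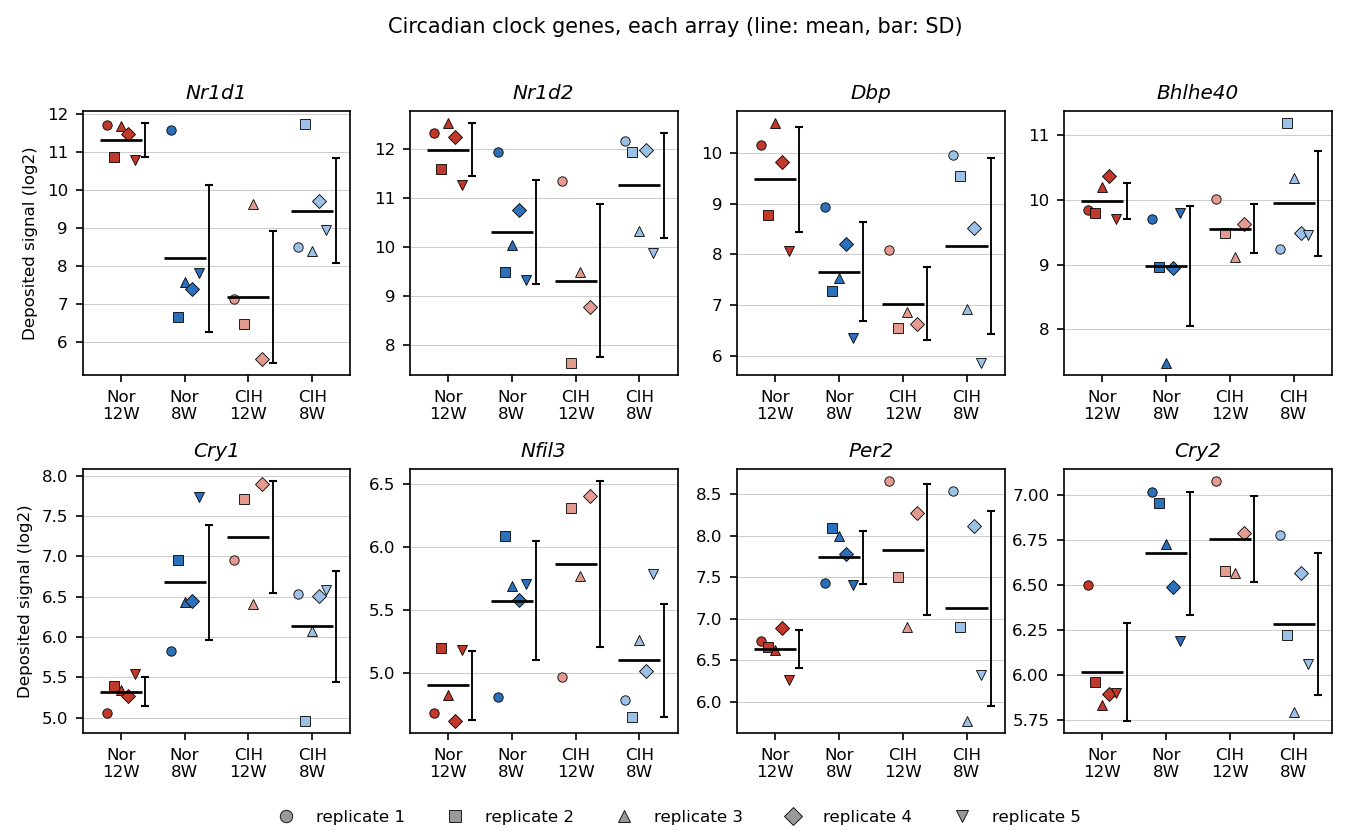
Deposited log2 signal (vertical axes) of 8 clock genes in each array of Nor 12W and Nor 8W and of both CIH groups. Marker shapes stand for replicates, lines for the means and bars for the SD. In normoxia Nr1d1 is high at 12 weeks and Cry1 low, and in CIH the difference between the weeks has the opposite sign for both.

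The 8 clock genes called in normoxia had the opposite sign in CIH, and some of the members that were not called did not. Between CIH 12W and CIH 8W Nr1d1 fell by 2.27 and Nr1d2 fell by 1.94. Of the 6 genes of the activator phase 4 rose, Cry1 among them, against 7.01% of all genes. The difference between the 2 pairs of groups was -5.38 for Nr1d1 (limma adjusted p = 0.0741), -3.62 for Nr1d2 (limma adjusted p = 0.0979) and 2.46 for Cry1 (limma adjusted p = 0.0581). The hour at which each mouse was killed is not given in the sources used here, so that clock time and group cannot be told apart.

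Macrophage genes were higher on average, but few passed the test. Of 25 macrophage markers 21 had a positive difference (median 0.71), 1 rose and 1 fell, and of 14 markers of foamy macrophages, the lipid-laden cells of plaques, all 14 were positive (median 0.92) and 2 rose. Mmp12, the macrophage elastase, had signals of 10.77, 11.20, 11.43, 11.58 and 10.47 in Nor 12W and of 8.81, 9.15, 5.65, 10.54 and 10.97 in Nor 8W. The Nor 12W arrays were close together and the Nor 8W arrays spread over a range that reached into them, with a difference of 2.06 (SE 0.75, limma adjusted p = 0.471). Gpnmb, a transmembrane glycoprotein of foamy macrophages, had signals of 16.17, 17.00, 16.01, 17.33 and 15.57 in Nor 12W and of 15.26, 14.30, 10.95, 16.36 and 16.55 in Nor 8W. Cd68, a lysosomal protein of macrophages, had a difference of 1.42 (SE 0.70) that was not called, and Lyz2, the macrophage lysozyme, one of 1.05 (SE 0.54). Ms4a7 rose by 1.38, and Cd163, a scavenger receptor of resident macrophages, fell by 0.72. The call of Gpnmb was lost under 10 of the alternatives, those of Ms4a7 and Cd163 under 7 each, and that of Mmp12 without the arrays with neuron signal.

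The macrophage signal of Nor 8W rested on single arrays. By array the Foamy macrophage list averaged 11.87, 12.39, 12.20, 12.71 and 11.69 in Nor 12W and 11.17, 10.74, 9.35, 12.05 and 12.54 in Nor 8W. Replicate 3, the Nor 8W array with neuron signal, was lowest, and replicates 4 and 5 lay among the Nor 12W arrays. Without Nor 8W replicate 4, 5 of 25 macrophage markers and 6 of 14 foamy markers rose. Without Nor 8W replicate 5, 12 of 25 macrophage markers and 9 of 14 foamy markers rose and 0 fell. Without the arrays with neuron signal the medians were 0.10 and 0.36, with 0 higher in either list. Of 27 lysosomal genes 26 were positive and 2 rose, Cd63 and Hexa, whose calls were lost under 9 and 8 of the alternatives (11 rose without Nor 8W replicate 5 and 0 without the arrays with neuron signal), and of 17 complement genes all 17 were positive and 0 were called. Of 23 chemokines and receptors of monocytes and neutrophils 1 rose, Cxcl12, and of 20 genes of lipoprotein uptake and efflux 1 rose, Apoc1.

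**Figure D5:**
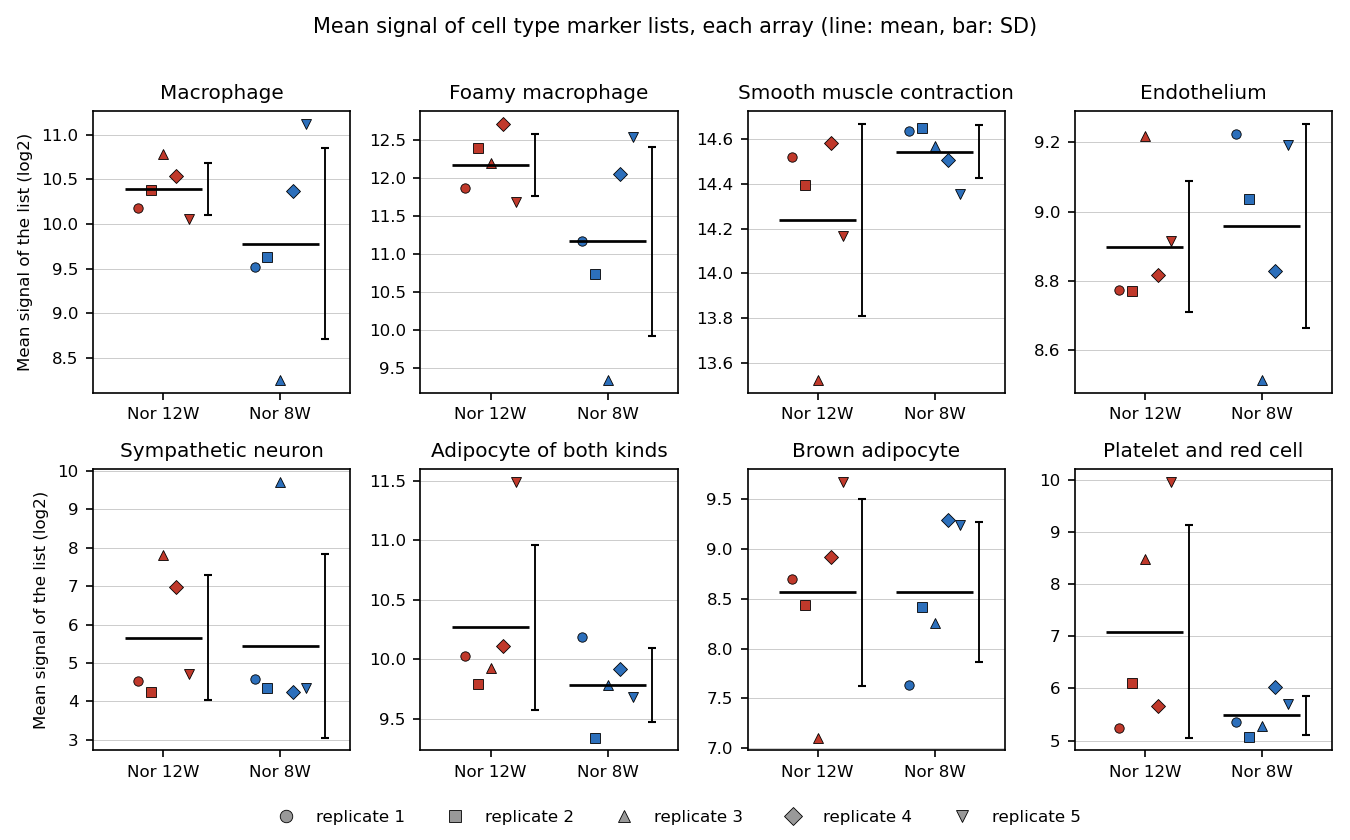
Mean log2 signal (vertical axes) of 8 lists of cell type markers in each Nor 12W and Nor 8W array. Marker shapes stand for replicates 1 to 5, lines for the means and bars for the SD. The Nor 8W arrays spread from 9.35 to 12.54 for foamy macrophages, and the neuron list is raised in 2 Nor 12W arrays and 1 Nor 8W array.

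Smooth muscle genes had mostly negative differences. Among 19 contraction genes 3 fell and 0 rose, 18 had a negative difference, and the median was -0.30. Myocd, the coactivator of the contractile programme, had signals of 11.60, 12.01, 9.86, 11.46 and 11.48 in Nor 12W and of 12.81, 12.56, 12.20, 12.09 and 12.28 in Nor 8W. Lmod1, an actin nucleator of smooth muscle, had 13.18, 12.81, 11.12, 12.41 and 12.30 in Nor 12W and 13.33, 13.88, 13.69, 13.44 and 13.24 in Nor 8W. In both genes the groups were separate and Nor 12W replicate 3, an array with neuron signal, was lowest, and the differences were -1.10 (SE 0.40) for Myocd and -1.15 (SE 0.41) for Lmod1. Without that array 1 of the 19 fell and the median was -0.12, while 6 fell without Nor 12W replicate 1 and 5 without Nor 12W replicate 2. Myh11, the smooth muscle myosin, averaged 18.33 ± 0.33 in Nor 12W and 18.59 ± 0.18 in Nor 8W (SD, n = 5 each) and was not called. In CIH 8 of the 19 genes were higher at 12 weeks and 0 lower (median 0.40), against 7.01% of all genes higher. In the difference between the 2 pairs of groups 16 of 19 were called, against 10.4% of all probe sets. Of 17 endothelial markers 1 fell, Pecam1, the adhesion molecule of endothelial junctions, by 0.53 (SE 0.16, limma adjusted p = 0.348), and 7 fell without the arrays with neuron signal.

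Several precursors of vascular microRNAs fell as well. Carmn, the long noncoding RNA that hosts Mir143 and Mir145a in smooth muscle, had signals of 11.38, 11.67, 10.28, 10.51 and 11.34 in Nor 12W and of 12.78, 11.77, 11.74, 11.53 and 12.35 in Nor 8W. Only Nor 12W replicate 2 reached above the lowest Nor 8W array (SE of the difference 0.29, limma adjusted p = 0.307). The probe set of Mir145a had 12.23 to 13.78 in Nor 12W and 13.56 to 15.57 in Nor 8W, and that of Mir143 fell by 0.95. These 3 overlap in the genome or lie near each other and are not independent. Of 26 vascular microRNA precursors 4 fell and 0 rose, 6 were above background in Nor 12W, and 2 fell without the arrays with neuron signal. Mir29a, which targets collagen mRNAs, had signals of 5.77, 5.89, 5.49, 5.61 and 5.19 in Nor 12W and of 5.68, 6.04, 5.96, 6.01 and 6.20 in Nor 8W, a difference of -0.39 (SE 0.13) at levels near background. Mir29b-1, its neighbour, averaged 5.36 ± 0.21 in Nor 12W and 5.26 ± 0.12 in Nor 8W (SD, n = 5 each) and was not called. Outside the list Mir378c fell (SE 0.49), with 3.13 to 4.91 in Nor 12W, below background in each array, and 4.02 to 6.49 in Nor 8W. The mature sequences (RefSeq, GRCm38.p6) are given with the seed, bases 2 to 8, in capitals, to show that miR-29a-3p and miR-29b-3p share a seed while their precursors differed in call.
miR-29a-3p, chr6:31062673-31062694: uAGCACCAucugaaaucgguua
miR-29b-3p, chr6:31063025-31063047: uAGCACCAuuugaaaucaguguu
miR-378c, chr14:46954905-46954925: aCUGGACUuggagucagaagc
The probe sets measure the precursor transcripts, and mature microRNAs were not measured.

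Genes of matrix turnover and of signalling to the vessel wall changed one by one. Of 21 matrix proteases and inhibitors 3 rose and 1 fell, and 8 rose without Nor 8W replicate 5. Beside Mmp12, Mmp3, the stromelysin, rose by 1.28 and Mmp8, a collagenase of neutrophils, by 0.85, and Timp4, an inhibitor of these enzymes, fell by 0.67 with separate groups (7.61 to 8.30 in Nor 12W, 8.34 to 8.78 in Nor 8W). Of 27 genes of TGF-beta and BMP signalling 1 rose and 4 fell. Bmp3, an atypical BMP that opposes its relatives, had signals of 7.11, 7.31, 7.08, 6.98 and 7.03 in Nor 12W and of 8.22, 8.62, 8.72, 7.81 and 8.60 in Nor 8W. The groups were separate, with a difference of -1.29 (SE 0.35). Smad4, Bmpr2 and Smad6 fell by 0.26, 0.26 and 0.52, and Grem1, a secreted BMP antagonist, rose by 1.04. Of 20 vasoactive receptors 3 rose and 2 fell. Npy1r, the receptor through which neuropeptide Y constricts vessels, had 11.40 to 12.22 in Nor 12W and 12.23 to 13.36 in Nor 8W, with hardly a gap between the groups. Calcrl, the receptor subunit for CGRP and adrenomedullin, rose by 0.48. Adrenomedullin itself, Adm, is not in the receptor list and fell by 1.13, with 9.15 to 10.35 in Nor 12W and 10.65 to 11.02 in Nor 8W. Ptger3, a prostaglandin E receptor, and Htr2b, a serotonin receptor, rose by 1.03 and 0.95. Of 20 targets of hypoxia-inducible factors 2 rose and 3 fell. P4ha1, a collagen prolyl hydroxylase, and Ldha, lactate dehydrogenase, rose by 0.78 and 0.26, and beside Adm, Kdm3a, a histone demethylase, and Ndrg1 fell by 0.24 and 0.45. Of 14 markers of adventitial fibroblasts 3 rose and 0 fell, Lum, Cd34 and Clec3b, each highest in Nor 12W replicate 3. Several of these calls rested on single arrays: those of Clec3b, Ndrg1 and Mmp8 were lost under 8, 7 and 6 of the alternatives, and those of Mmp3, Cd34, Htr2b and Kdm3a under 3 each. Without the arrays with neuron signal Mmp3, Mmp8, Grem1, Smad6, Htr2b, P4ha1, Lum, Cd34 and Clec3b were not called.

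Outside the lists, the smallest p-values among genes that fell belonged to a transcriptional cofactor and several signalling and surface proteins. Ldb1, a LIM domain binding cofactor, had signals of 8.74, 8.77, 8.94, 8.70 and 8.71 in Nor 12W and of 9.30, 9.26, 9.22, 9.15 and 9.11 in Nor 8W. The groups were narrow and separate, and the difference of -0.44 (SE 0.06) had a limma adjusted p of 0.00508. Angptl7, a secreted angiopoietin-like protein, had signals of 7.39, 6.92, 8.11, 6.90 and 5.82 in Nor 12W and of 9.18, 10.31, 11.06, 10.64 and 9.62 in Nor 8W. Its level was 8.8-fold lower in Nor 12W, with no overlap (difference -3.14, SE 0.52, limma adjusted p = 0.0269). Galnt15, an enzyme of O-glycosylation, fell by 2.40 (adjusted p = 0.0404 in limma), with 7.31 to 8.35 in Nor 12W and 9.45 to 11.41 in Nor 8W. Perp, a desmosomal protein downstream of p53, had signals of 11.48, 10.82, 10.07, 10.79 and 10.67 in Nor 12W and of 12.30, 12.47, 12.59, 12.38 and 12.45 in Nor 8W, a difference of -1.67 (SE 0.28, limma adjusted p = 0.0277). Inmt, a methyltransferase, fell by 1.76 and Art3, a mono-ADP-ribosyltransferase family member, fell by 1.48, with 9.36 to 10.09 in Nor 12W and 10.83 to 11.94 in Nor 8W. Gab2, a docking protein of receptor tyrosine kinases, fell by 0.70 (adjusted p = 0.0267 in limma). Klf8, a Kruppel-like repressor, and Trmt1, a tRNA methyltransferase, fell by 0.31 and 0.22, also with an adjusted p under 0.05, and Slc19a3, a thiamine transporter, fell by 0.42 at signals below background.

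The same genes were read in CIH. Ldb1 fell by 0.43 and Galnt15 fell by 2.30 in CIH 12W compared with CIH 8W, while Angptl7 and Perp had differences there of -0.74 and -0.18 that were not called. Among the genes that rose, Orm1 and Orm2, acute phase glycoproteins, had 8.56 to 10.31 and 5.18 to 5.91 in Nor 12W, against 7.11 to 7.92 and 4.52 to 4.90 in Nor 8W. Both had separate groups, with differences of 1.98 and 0.82 (limma adjusted p = 0.0527 for Orm1 and 0.0269 for Orm2), and were not called in CIH. Tmem45b, a transmembrane protein, rose by 2.23, with 11.26 to 13.61 in Nor 12W and 9.35 to 10.41 in Nor 8W, and Rcbtb2 rose by 0.38 (adjusted p = 0.0257 in limma).

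Across all probe sets the change over the same 4 weeks in CIH overlapped in part. From 8 to 12 weeks of CIH 8178 probe sets (12.4%) were called, 3437 (5.21%) higher and 4741 (7.19%) lower in CIH 12W, and 686 had an adjusted p under 0.05 in limma. The 386 that rose in both pairs of groups were 13.9% of those higher in normoxia and 11.2% of those higher in CIH, and the 314 that fell in both were 15.3 and 6.62% of those lower. A further 185 rose in normoxia and fell in CIH, and 134 fell in normoxia and rose in CIH. Of the 29 probe sets with an adjusted p under 0.05 in normoxia 25 had the same sign in CIH and 15 were called the same way. Over 65956 probe sets the 2 differences had a Pearson correlation of -0.20, as a description, since probe sets are not independent replicates and the 2 pairs share no arrays. The difference between the pairs was called for 6878 probe sets (10.4%), 6905 had an unadjusted p under 0.05 in limma, and 0 had an adjusted p under 0.05 (lowest 0.0559). Those with the smallest p included Fem1a, a subunit that recruits ubiquitin ligase substrates, which fell in normoxia by 0.28 and rose in CIH by 0.24, Skil, a repressor of SMAD signalling, which fell in normoxia by 0.27 and rose in CIH by 0.45, Baiap2l1, an adaptor of the actin cytoskeleton, which fell in normoxia by 0.17 and rose in CIH by 0.34, and Kng2, a kininogen, which rose in normoxia by 0.81 and fell in CIH by 1.34. Pygl rose in normoxia by 1.59 and had a difference of -0.08 in CIH (difference between the pairs -1.67, limma adjusted p = 0.0559).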

How the data were processed

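RNA of whole aorta was measured on 1 array per sample. The deposited values are log2 signals per probe set, normalized across arrays by the authors, and they were used with no further normalization. Expression Console (Affymetrix, version not given) appears in the notes on processing that the submitters gave, Transcriptome Analysis Console in the methods, and the summary method is not given in the sources used here, so that fold changes hold on the deposited scale only. Gene names came from the platform annotation updated through RefSeq: 31292 of 65956 probe sets carried 1 symbol, 1522 several and 33142 none. Background was the 95th percentile of 23 background probe sets per array.

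A mean for each of the 5 groups, among them CIH 8W + Nor 4W, was fitted to all 23 arrays by limma 3.58.1 under R 4.3.3. Variances were moderated by empirical Bayes, and p-values were adjusted by Benjamini-Hochberg over 65956 probe sets. The fit was tested on simulated data. This model gave every SE and p printed for a gene. Alternatives were the 2 groups alone, array weights, median centring, quantile normalization, trended and robust moderation, the replicate number as a block, a filter on dim probe sets, a fold change over 1.5, gene values averaged over probe sets, each array left out, and removal of the 5 arrays with neuron signal.

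The comparison and the gene lists were chosen with earlier results of these data known, and the lists of fasting, triglyceride, NADPH supply, ER transport, the COG complex, mitochondrial carriers, the acute phase and small RNAs were written after results had been seen. Genes could be named where they were among the 6 smallest p-values of a list discussed, the 12 smallest p-values or 12 largest fold changes in each direction above background, the 15 smallest adjusted p-values, or the 8 smallest p-values of the difference from CIH. Canx, Creld2, Dnajc3, Hspa5, Adipoq, Ucp1, Arntl, Cd68, Lyz2, Acta2, Myh11, Mir29b-1 and Th were named in addition after their values were seen. The number of arrays limits the precision.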

Additional observations from a re-analysis of the deposited data

Results flagged for a closer look

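Within a group of 5 arrays, a single array stood apart where its gap to the next array was over 0.71 of the range of the group. This was checked for 366 groups, the genes and lists named here in Nor 12W and in Nor 8W, and a single array stood apart in 33 of them, while chance sets apart about 1 in 20 groups. The causes were not tested.

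In Nor 12W replicate 5 the fat genes were high: the adipocyte list averaged 11.49 (others 9.79 to 10.11), Agpat2 12.95 (11.46 to 11.62), Plin1, a coat protein of lipid droplets, 11.58 (9.23 to 9.62), Cebpa, a transcription factor of adipocytes, 8.98 (7.31 to 7.67) and Taldo1 8.69 (8.23 to 8.32). In Nor 12W replicate 3, smooth muscle and surface genes were low, with Myocd at 9.86 (11.46 to 12.01), Actg2, the enteric smooth muscle actin, at 14.18 (14.75 to 14.98), Itga5, an integrin subunit, at 10.39 (12.25 to 12.57) and Atp2a3, a calcium pump, at 8.43 (9.04 to 9.27). In the same array Lum was at 16.64 (15.68 to 15.91), Pecam1 at 15.34 (14.69 to 14.87), Dnajb11, a chaperone partner of BiP, at 8.81 (7.87 to 8.08), Nsdhl, an enzyme of sterol synthesis, at 9.72 (8.46 to 8.57), Ldb1 at 8.94 (8.70 to 8.77) and the complement list at 11.37 (10.71 to 10.89). In Nor 12W replicate 1 Cry2 was at 6.50 (5.83 to 5.96) and Ndufs5 at 6.42 (6.21 to 6.26).

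In Nor 8W replicate 3 nerve genes were high, with the sympathetic neuron list at 9.72 (others 4.24 to 4.58), Dbh, which makes noradrenaline, at 16.35 (4.41 to 5.56), Th at 14.84 (4.06 to 4.84) and Npy, neuropeptide Y, at 16.03 (5.94 to 7.32). The cholesterol list of that array was at 7.87 (6.46 to 6.68) and a list of small nucleolar RNAs at 5.97 (4.90 to 4.99). In Nor 8W replicate 5 ER genes were high, with Hspa5 at 14.50 (12.91 to 12.98), Creld2 at 10.10 (8.46 to 8.89), Pdia6 at 12.78 (11.54 to 11.88) and the chaperone list at 12.59 (11.82 to 11.97), and Myh11 was at 18.28 (18.60 to 18.73). In Nor 8W replicate 1 Nr1d1 was at 11.57 (6.64 to 7.82), Galnt15 at 11.41 (9.45 to 9.84) and Fkbp2, an ER prolyl isomerase, at 8.08 (8.40 to 8.46). In Nor 8W replicate 2 Ppp1r15a was at 5.68 (4.74 to 4.80) and the list of vasoactive receptors at 7.62 (7.34 to 7.42).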

How the results depend on the processing

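Of 129 called genes named in the text 80 kept their call under every alternative run for single genes. Another 49 lost it under at least 1, and 0 changed sign. A fold change over 1.5 and gene values averaged over probe sets were not applied in this count. The filter on dim probe sets kept 135 of the 142 genes named, and a gene it removed was not counted as lost. The 2779 probe sets higher in Nor 12W became 1650 without dim probe sets and 342 at a fold change over 1.5, and the 2053 lower became 1194 and 241. Leaving out 1 array gave 2030 to 3001 higher and 1656 to 2648 lower. The 29 with an adjusted p under 0.05 became 0 with the 2 groups alone, where 4676 were still called, 19 after quantile normalization, 52 without dim probe sets and 2 without the 5 arrays with neuron signal, and leaving out 1 array gave 8 to 58. Separate groups, 1015 in all, numbered 626 without dim probe sets and 3981 without the arrays with neuron signal, where fewer arrays make separation easier, and 1469 to 2256 with 1 array left out. The 6878 called in the difference from CIH became 3838 without dim probe sets, 2505 at a fold change over 1.5 and 3383 without the arrays with neuron signal. The share of called probe sets that were higher, 57.5%, was 47.9% after quantile normalization. Replicate numbers were not taken to pair the samples, since the deviations of same-numbered arrays correlated at 0.11, 0.40, 0.45, -0.32 and 0.13 and the labels name no shared source, and with the replicate number as a block 5128 probe sets were called and 8 had an adjusted p under 0.05. Most probe sets lay below background, where changes are compressed or lost, and at the top of the range, as for Acta2, a change could not be seen. The causes were not tested.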

Other observations

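Part of the small RNAs of the nucleus rose in Nor 12W, and most were not called. Among 915 small nuclear RNA genes 225 rose and 5 fell (median difference 0.17), and among 955 small nucleolar RNA genes 152 rose and 5 fell (median 0.14), against 6.23% higher and 3.46% lower over all genes. The list of small nuclear RNAs averaged 7.09 ± 0.19 in Nor 12W and 6.90 ± 0.13 in Nor 8W (SD, n = 5 each). Many are near-identical copies that share probe sequence and do not count separately, and in Nor 12W 417 of the small nuclear and 389 of the small nucleolar RNAs were above background. Of the small nuclear RNAs 47 rose without Nor 12W replicate 3, 77 without Nor 8W replicate 1, 86 without Nor 8W replicate 2, 128 without Nor 12W replicate 5 and 54 without the arrays with neuron signal. Of the small nucleolar RNAs 82 rose without Nor 12W replicate 3 and 70 without the arrays with neuron signal. Without dim probe sets, which left 431 of 959 small nucleolar and 449 of 928 small nuclear probe sets, 56 small nucleolar RNAs rose with a median of 0.31 and 191 small nuclear RNAs with a median of 0.35. In CIH 6 of the 915 small nuclear RNAs were higher and 43 lower at 12 weeks, against 7.01% of all genes higher and 7.09% lower. Neither count was above the share of all genes.

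Major urinary proteins, lipocalins that liver and other glands secrete, rose together at signals near background. All 5 measured genes rose (Mup3, Mup5, Mup6, Mup20 and Mup21), with a median of 0.58, 2 rose without Nor 12W replicate 3, and 2 of them were above background in Nor 12W and 0 in Nor 8W. They are close paralogs whose probes may not tell them apart. Mup5 had signals of 5.10, 5.44, 5.33, 5.24 and 5.31 in Nor 12W and of 3.89, 4.99, 4.70, 4.44 and 3.96 in Nor 8W. In CIH all 5 had the opposite sign, and all 5 were called in the difference between the pairs of groups, against 10.4% of all probe sets.

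Other cell types and programmes had few calls. Of 11 T cell markers 1 rose, of 9 B cell markers 2 fell, of 24 interferon-stimulated genes 2 rose and 1 fell, and of 202 immunoglobulin variable segments 2 rose and 1 fell. Few of the lymphocyte genes were above background, where their counts say little. In Nor 12W they were 2 T cell markers, 1 B cell marker and 54 variable segments, and in Nor 8W 2, 0 and 44. Of 7 platelet and red cell markers 3 rose, led by Ppbp, the platelet basic protein, with 5.29, 7.25, 12.06, 6.34 and 14.80 in Nor 12W and 4.55, 4.12, 4.97, 6.87 and 5.43 in Nor 8W. Only Nor 12W replicates 2, 3 and 5 lay above Nor 8W. Tubb1, the platelet tubulin, and Gp9, a platelet glycoprotein, were highest in the same Nor 12W replicates 3 and 5 (7.35 and 9.98 for Tubb1, 6.76 and 9.44 for Gp9, against 4.49 or less in Nor 8W for both). Without Nor 12W replicate 5 the median of the list was 0.67 in place of 1.58.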
